A study of Mus musculus with 8 samples.

Results

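The genes described here are 42 genes of synaptic vesicles and secretory granules, taken by name from a count table of 55367 genes. All 42 were found in the table. They were read in 6 poly(A)-enriched RNA libraries of Neuro2a cells, a mouse neuroblastoma line, 3 with CRISPR activation (CRISPRa replicates 2, 3 and 5) and 3 without a guide (no-sgRNA replicates 2, 3 and 4). In CRISPRa a catalytically dead Cas9, here the Staphylococcus aureus protein sadCas9 fused to the activator VP64, is brought to a gene by a single guide RNA (sgRNA), and the series title names SCN2A, a sodium channel gene. For CRISPRa, the sgRNA and a sadCas9-VP64 plasmid were transfected at 750 ng each, and the control cultures received sadCas9-VP64 alone, in an amount the labels do not state. Both groups therefore carry the activator, and the guide cannot be told apart from the amount of nucleic acid that came with it. Both groups come from 1 cell line, and nothing in the labels says that replicates were separate cultures, so the p-values measure the spread between these libraries, which may be technical.

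Neurons release transmitter from small clear synaptic vesicles and release peptides from larger dense-core granules. In both, a SNARE complex of vesicle and plasma membrane proteins drives fusion, synaptotagmins sense calcium, and scaffold proteins hold the vesicle at the release site. Granins are acidic proteins that help form the dense core and are cut into peptides, and cells of the sympathoadrenal lineage, from which neuroblastoma arises, are rich in them.

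Each library held between 29739422 and 34248514 counts. Scn2a itself had 267, 279 and 231 counts with CRISPRa and 190, 193 and 130 without the guide, and its log2 fold change of 0.48 with SE 0.19 missed the threshold (edgeR adjusted p = 0.0899). Of 13 neuronal and neuroblastoma markers, 10 were expressed, among them Hand2 at 545 TPM and Tubb3 at 642 TPM, while Nefl, Nefm and Dcx were at or near 0 in every library. Among these markers Tubb3 was called higher, and Phox2a and Hand2 were called lower with CRISPRa. Of 12 markers of fibroblasts, leukocytes, glia and endothelium, Ptprc, Csf1r and Aqp4 had at most 6 counts in any library. The summed level of all 12 markers was 32.0 to 43.0 CPM with CRISPRa and 50.1 to 55.9 CPM without the guide. Within that list Cdh5 was called higher and Col1a2 and Pdgfra were called lower, and the part of these differences in the results below was not tested. TPM is a library's share of transcripts scaled by exon length, which allows levels to be compared between genes. The length is summed over a gene's exons and may exceed that of the transcripts expressed, so levels and shares between genes are approximate. CPM is its share of counts, scaled here by TMM (trimmed mean of M-values) factors and compared only within a gene. A gene was called higher or lower at a Benjamini-Hochberg adjusted p under 0.05 in edgeR's quasi-likelihood test over all 15117 genes tested.

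Promoter sequence is shown first for the granule cargo genes, a choice made after their fold changes were seen. Of the 6, 3 were called higher, and Vgf, with the largest difference, had no promoter to search. As background, cAMP response elements, the binding sites of CREB-type factors, are a textbook feature of granin promoters. The sequences are from RefSeq on GRCm38.p6, on the strand of the gene, and capitals mark the element TGACGTCA or the shorter site TGACG, which the full element contains on both strands. For Chga and Scg3 the 100 bases before the annotated start are given. For Chgb, Scg2 and Scg5 the 30 bases around 1 site are given.
Chga, chr12:102554841-102554940, plus strand: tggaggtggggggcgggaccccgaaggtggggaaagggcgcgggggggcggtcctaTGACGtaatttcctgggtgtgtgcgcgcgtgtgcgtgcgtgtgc
Scg3, chr9:75684057-75684156, minus strand: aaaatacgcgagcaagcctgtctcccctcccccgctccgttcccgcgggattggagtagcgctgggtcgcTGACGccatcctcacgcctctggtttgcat
Scg2, chr1:79440076-79440105, minus strand: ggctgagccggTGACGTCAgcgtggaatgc
Chgb, chr2:132781559-132781588, plus strand: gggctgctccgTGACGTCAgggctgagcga
Scg5, chr2:113829248-113829277, minus strand: aaggaggtaaaTGACGttcataggggtcga
The site shown begins 44 bases before the start in Chga, 30 in Scg3, 68 in Scg2, 72 in Chgb and 175 in Scg5. Further TGACG sites of Scg5, after its start and inside its own exon, are not shown. The windows of Scg2 and Chgb also lie inside an exon of the same gene in GENCODE M21, whose transcripts start further upstream.

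The promoter table, which covers 250 bases before to 50 after each start, matched 34 of the 42 genes with 42 promoters. Not matched were Snap25, Vamp2, Syn3, Syt4, Syt5, Syt7, Rims2 and Vgf. Searched on both strands, TGACGTCA occurred in 4 of the 42 promoters (Chgb, Napa, Scg2 and Syn1), or 9.52%, against 1.79% of all 32851 promoters. TGACG occurred in 14 of the 42, or 33.3%, against 20.8% of all promoters, and in all 5 of the cargo genes matched. The letters TTCAGCACC, the left part of the element bound by the neuronal repressor REST, occurred in 3 of the 42 (Scg2, Syn1 and Unc13a), or 7.14%, against 0.371% of all. A match is a run of letters and does not show that a factor binds there. None of the 4 genes with TGACGTCA was called (log2 fold changes 0.10 for Chgb, 0.04 for Napa, 0.23 for Scg2 and 0.27 for Syn1). Of the 14 with TGACG, Chga and Scg3 were called higher and none lower. Among all genes with a mean of at least 0.5 CPM, 10.1% were called higher and 9.95% lower. Slc17a6, 1 of the 14, had 0 counts and could not be called. Scg5 (-0.15) and Rab3a (-0.26) were negative, and the others tested were positive. Cplx2 and Syt11, both called higher, had no TGACG, and Vgf, Syt7 and Rims2 were not searched. A link between these sites and the fold changes was not tested. Among regulators, Crem, a CREB relative that includes a cAMP-inducible repressor form, was called higher (log2 fold change 0.49, SE 0.14, edgeR adjusted p = 0.0238), and Creb1 and Atf1 were not called (both -0.07). In the authors' deposited table Creb1 was lower (-0.16, adjusted p 0.0426) and Atf1 did not pass (-0.09).

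Levels differed widely within the group. Of the 42, 8 were under a mean of 0.5 CPM over the 6 libraries and get no fold change. The remaining 34 had a median level of 33.6 TPM, and 8 of them were at or above 100 TPM. The 6 granule cargo genes together held 60.9% to 64.7% of the summed TPM of all 42 genes in each library. Chgb, encoding the granin chromogranin B, was the most abundant at 824 ± 56.5 TPM (SD over the 6 libraries). Vgf, a neuropeptide precursor induced by neurotrophins, followed at 371 ± 112 TPM, then Scg2 (secretogranin II) at 225 ± 28.0 and Scg5, the chaperone 7B2 of prohormone convertase 2, at 204 ± 28.6. The order of Scg2 and Scg5 turned between the groups: Scg2 was above Scg5 in the 3 CRISPRa libraries (245, 247 and 253 against 229, 215 and 150 TPM) and below it in the 3 controls (191, 192 and 224 against 205, 203 and 225 TPM). The difference between the groups in this order was not tested. Next came Syt11 at 156 ± 25.9 TPM, Syn2 at 134 ± 11.5, Chga (chromogranin A) at 124 ± 18.4 and Scg3 (secretogranin III) at 111 ± 18.7, neighbours whose spreads also overlap.

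**Figure D1:**
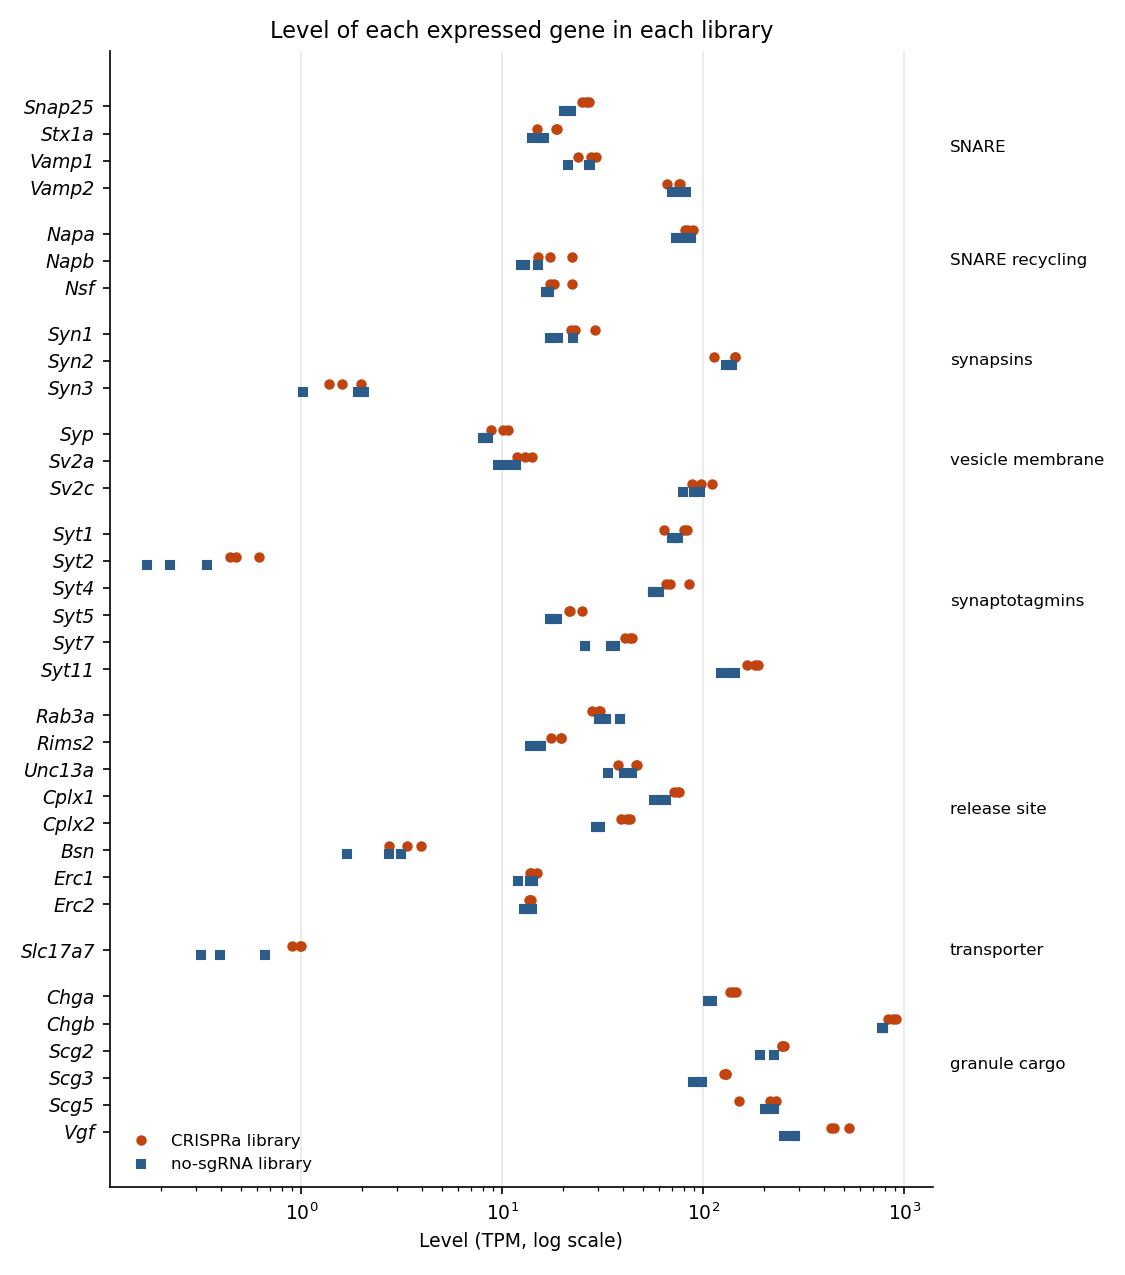
Level of each of the 34 expressed genes in TPM (log scale) in each library, grouped by role, with circles for the 3 CRISPRa libraries and squares for the 3 no-sgRNA libraries. Chgb, among the granule cargo genes in the bottom rows, lies farthest right at a mean of 824 TPM, and Syt2 and Slc17a7 lie lowest at means of 0.377 and 0.707 TPM.

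In several families 1 paralogue made up most of the transcript pool. Syn2 held 84.9% ± 2.07 of synapsin TPM and Syn1 14.0% ± 2.04 (SD, n = 6), and Syn3 was at 1.06%. Synapsins tether vesicles to actin in the reserve pool. Sv2c held 88.8% ± 1.25 of the TPM of the SV2 vesicle glycoproteins, Sv2a 11.2% ± 1.27, and Sv2b had at most 6 counts in a library. Unc13a, the Munc13-1 priming factor, held 99.9% of its pair, and Unc13b had 8 to 14 counts. Rims2, a RIM scaffold of the active zone, had 1322 to 1817 counts, whereas Rims1 had 2 counts in CRISPRa replicate 2 and 0 in the other libraries.

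The same one-sidedness held for the large active zone proteins. Bsn (bassoon) had 252 to 561 counts and a level of 2.92 ± 0.755 TPM, while Pclo (piccolo) had 2, 0 and 8 counts with CRISPRa and 0 in each no-sgRNA library. Erc1 and Erc2, which encode ELKS scaffolds, were near parity at 50.3% ± 2.38 and 49.7% ± 2.38 of their summed TPM. Vamp2, the vesicle SNARE of fast release, held 74.1% ± 1.51 and Vamp1 25.9% ± 1.51. That split rests on the length scaling: Vamp2 had 2240 to 2766 counts and Vamp1 2020 to 2819, over 3809 and 10167 exon bases. Napa (alpha-SNAP, which with NSF takes spent SNARE complexes apart) held 83.9% ± 2.72 against 16.1% for Napb.

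**Figure D2:**
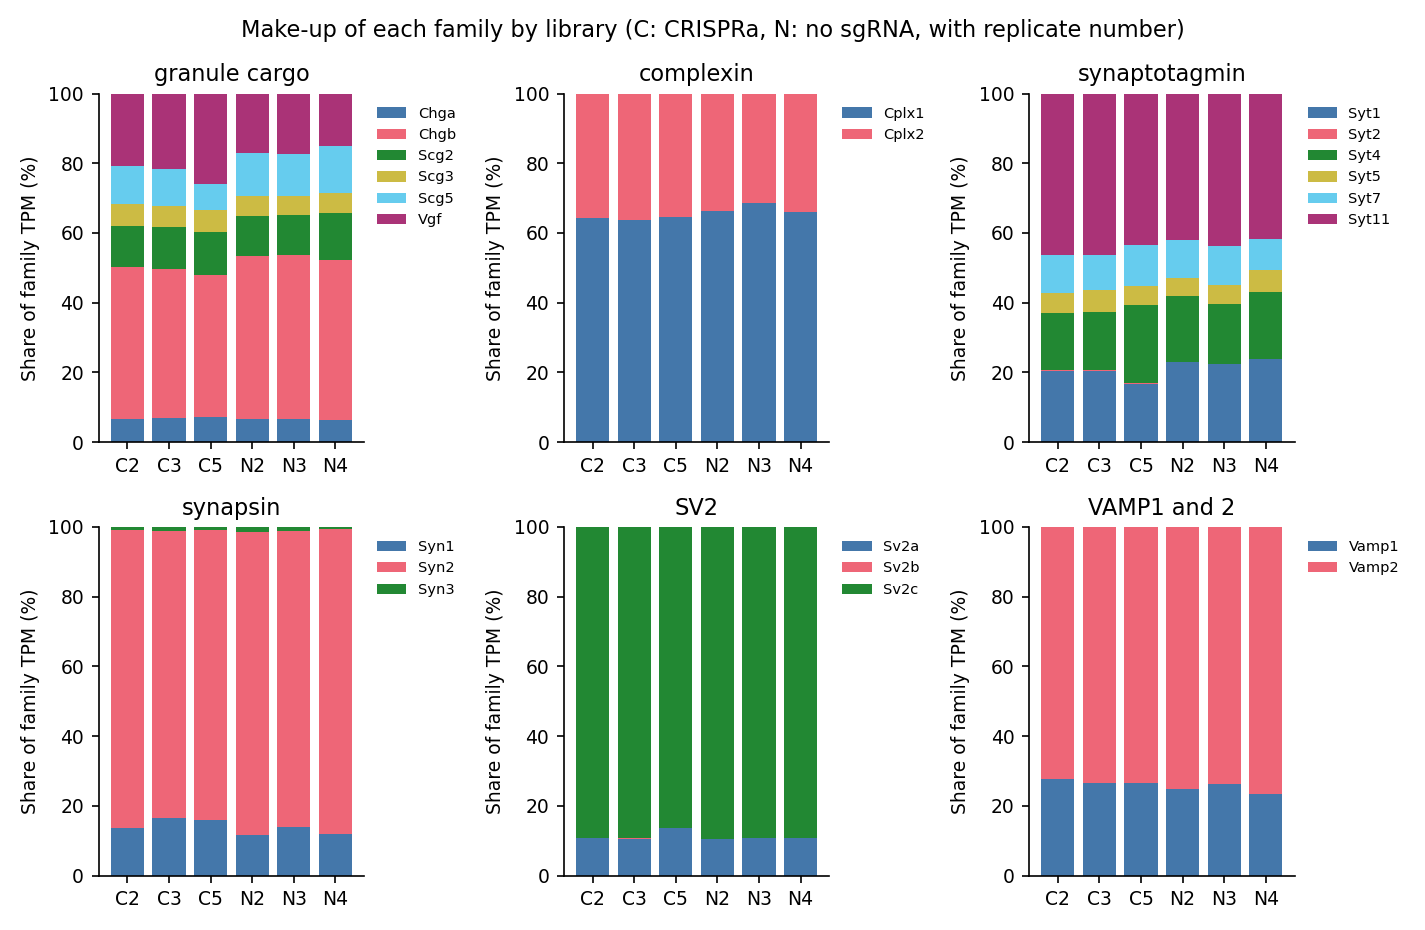
Share of each paralogue in its family's summed TPM (percent) for 6 families, 1 bar per library (C for CRISPRa, N for no sgRNA, with the replicate number). Syn2 and Sv2c fill at least 82.3% and 86.2% of their bars, and the Vgf segment is wider in the 3 CRISPRa bars (20.7% to 26.0%) than in the 3 no-sgRNA bars (15.1% to 17.3%).

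The vesicular transporters that define fast transmitters were near absent. Slc17a6 (VGLUT2) had 0 counts in all 6 libraries, which allows a level of up to 0.0876 to 0.101 CPM by counting error alone. Slc32a1, the GABA and glycine transporter, had at most 2 counts, and Slc17a7 (VGLUT1) had 16 to 48 counts. By contrast Slc18a2, the vesicular monoamine transporter VMAT2 and no member of the 42, was at 57.9 TPM. Cadps and Cadps2, whose CAPS proteins prime granules, had at most 12 and 10 counts.

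The comparison of CRISPRa with no sgRNA asks which of these genes differed when a guide was present. Of the 34 genes with a fold change, 7 were higher with CRISPRa, 0 were lower and 27 did not pass. These are bulk libraries, in which more cells with a transcript and more transcript per cell cannot be told apart. The 7 were Vgf, Scg3, Chga, Cplx2, Syt11, Syt7 and Rims2, 3 granule cargo proteins, 2 synaptotagmins and 2 release-site proteins. That is 20.6% of the 34, against 20.0% called in either direction among the 14038 tested genes with the same minimum level, so the share called was near the background. By direction, the members' 20.6% higher stands beside 10.1% of all such genes, and their 0 lower beside 9.95%. Over all 15117 genes tested, 18.7% were called, 9.47% higher and 9.25% lower. For the count of 0, edgeR's unadjusted p was under 0.05 for 1 gene, Rab3a, and DESeq2 and limma-voom also called 0 lower.

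The median log2 fold change of the 34 was 0.23, against -0.0093 over all tested genes of that level, and 28 of 34 (82.4%) were positive, against 48.6%. Groups did not overlap for 14 genes that were higher (41.2%, against 18.5% of such genes) and for 1 that was lower (2.94%, against 19.8%). In either direction 38.3% of all genes of that level had groups that did not overlap. The fold changes were small: apart from Syt2 and Slc17a7, which have few counts, none exceeded the 1.64-fold of Vgf. A further 5 genes had an adjusted p between 0.05 and 0.1. The number called higher was 12 with DESeq2, with library-size scaling and with a filter of a mean of at least 0.5 CPM, 11 with median-ratio (RLE) factors, and 6 or 7 when any 1 library was left out. Over all genes, 1431 were higher in the main fit, 1621 with DESeq2, 1520 with library-size scaling, 1496 with that filter and 1499 with RLE factors. Leaving out any 1 library gave 1040 to 1266 over all genes. In those last fits Syt7 or Rims2 was lost in 5 of the 6, and Snap25, Napb, Syt4 or Scg2 passed in 4, so the genes were not the same throughout. Without both CRISPRa replicate 5 and no-sgRNA replicate 4, 10 were higher and 0 lower, with Snap25, Scg2 and Chgb added to the 7.

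**Figure D3:**
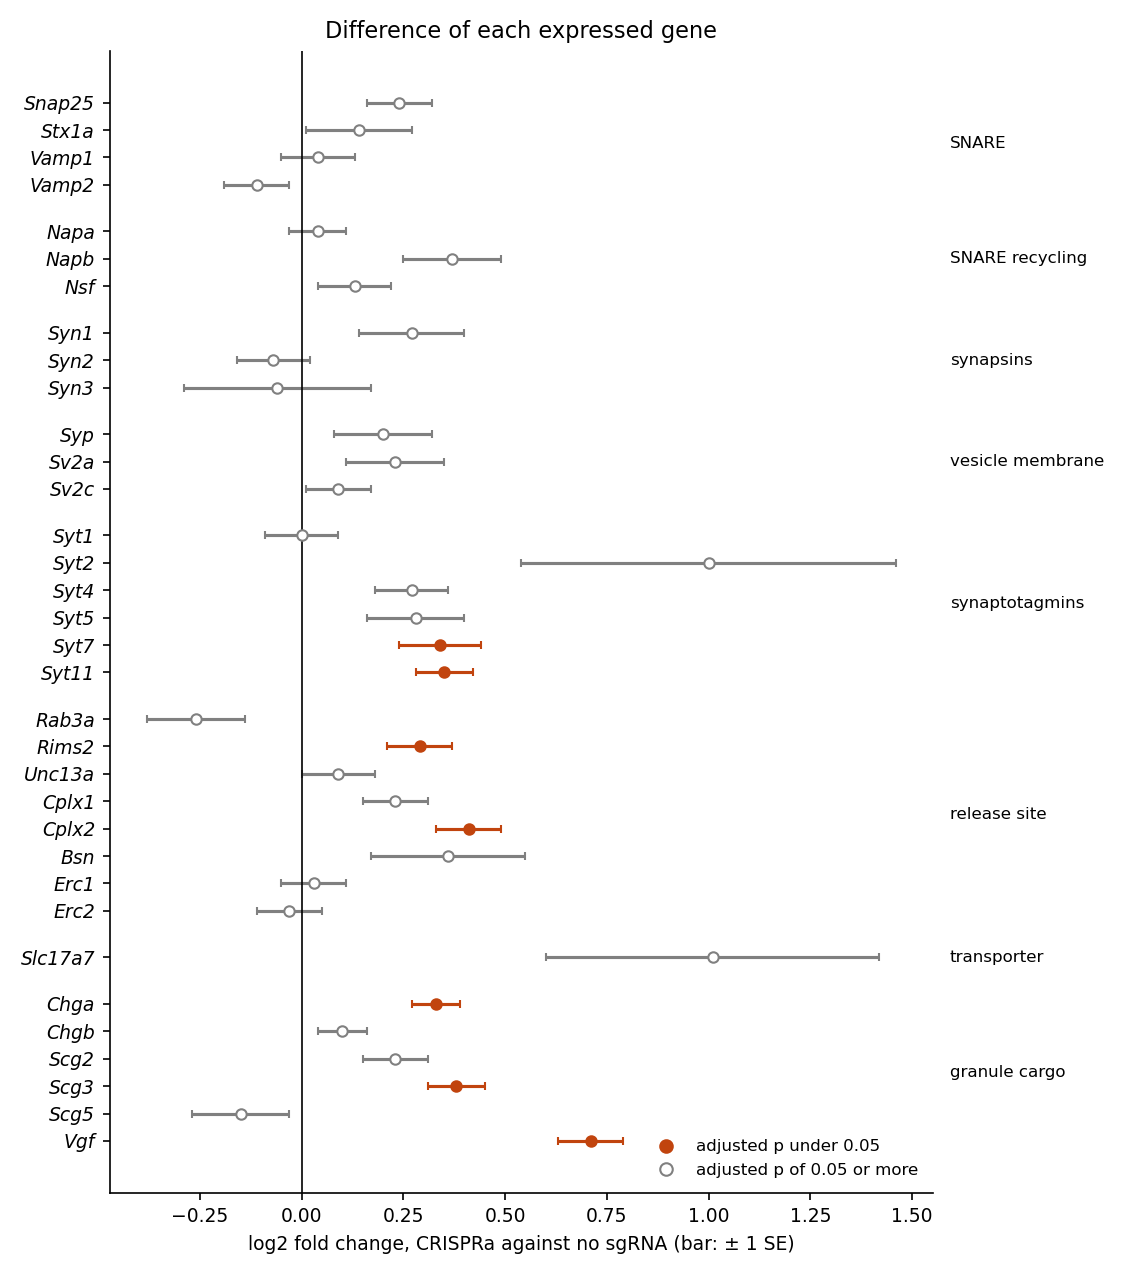
Log2 fold change of the 34 expressed genes, CRISPRa against no sgRNA, with bars of 1 SE, grouped by role. Filled points mark the 7 genes with an adjusted p under 0.05, from 0.29 (Rims2) to 0.71 (Vgf), all to the right of 0.

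Granule cargo held the largest difference that passed. Vgf (mm10 chromosome 5, 137026392 to 137033351, plus strand) was at 350, 362 and 432 CPM in CRISPRa replicates 2, 3 and 5. In no-sgRNA replicates 2, 3 and 4 it was at 234, 242 and 222 CPM. Every CRISPRa library lay above every control, and CRISPRa replicate 5 was the highest. On the log2 scale Vgf was higher by 0.71 with SE 0.08, or 1.64-fold (edgeR adjusted p = 1.76e-05).

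Scg3 (chromosome 9, 75643189 to 75684056, minus strand), which links granins to the granule membrane, was at 95.8, 96.7 and 96.4 CPM against 74.6, 69.0 and 78.7 CPM. The 3 CRISPRa values were nearly equal and all above the controls, and the log2 fold change was 0.38 with SE 0.07 (edgeR adjusted p = 0.0017). Chga (chromosome 12, 102554969 to 102565028, plus strand) was at 103, 107 and 110 CPM against 84.1, 85.1 and 85.8 CPM, again without overlap, and its log2 fold change was 0.33 with SE 0.06 (edgeR adjusted p = 0.0025). The 100 bases before the start of both genes are printed above.

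The other cargo genes did not pass in the edgeR test described above. Scg2 was at 170, 170 and 174 CPM against 134, 137 and 166 CPM, so that only no-sgRNA replicate 4 came close to the CRISPRa libraries. Its log2 fold change was 0.23 with SE 0.08 (edgeR adjusted p = 0.0511), and it was 0.34 (adjusted p = 0.00239) without that library. Scg2 passed under all 11 other scalings, filters, tools and designs, with adjusted p = 0.0286 in DESeq2 and 0.0414 in limma-voom, but not when any of the other 5 libraries was left out alone (adjusted p up to 0.206). Chgb, with the most counts of the 42, was at 655 ± 29.3 CPM against 609 ± 13.0 CPM (SD, n = 3), and its log2 fold change was 0.10 with SE 0.06 (edgeR adjusted p = 0.268). Chgb passed only in the 3 fits on the 4 libraries numbered 2 and 3 (adjusted p = 0.00831 without a replicate block). Scg5 was at 98.7, 92.4 and 64.4 CPM against 89.4, 90.4 and 105 CPM. CRISPRa replicate 5 was the lowest of all 6 there, the opposite of its place for Vgf. Its log2 fold change was -0.15 with SE 0.12 (edgeR adjusted p = 0.427).

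The make-up of the cargo pool differed as well. Vgf took 20.7%, 21.6% and 26.0% of cargo TPM with CRISPRa and 16.9%, 17.3% and 15.1% without the guide. Chgb took 43.7%, 42.7% and 40.8% against 46.9%, 47.0% and 46.0%. For both shares the groups did not overlap. Nor did they for Chga and Scg3, whose shares were higher with CRISPRa, or Scg5, whose share was lower. For Chga the gap was narrow, with 6.59% in CRISPRa replicate 2 against 6.57% in no-sgRNA replicate 2. The share of Scg2 overlapped. Shares within a pool are tied to each other, and they were not tested separately.

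**Figure D4:**
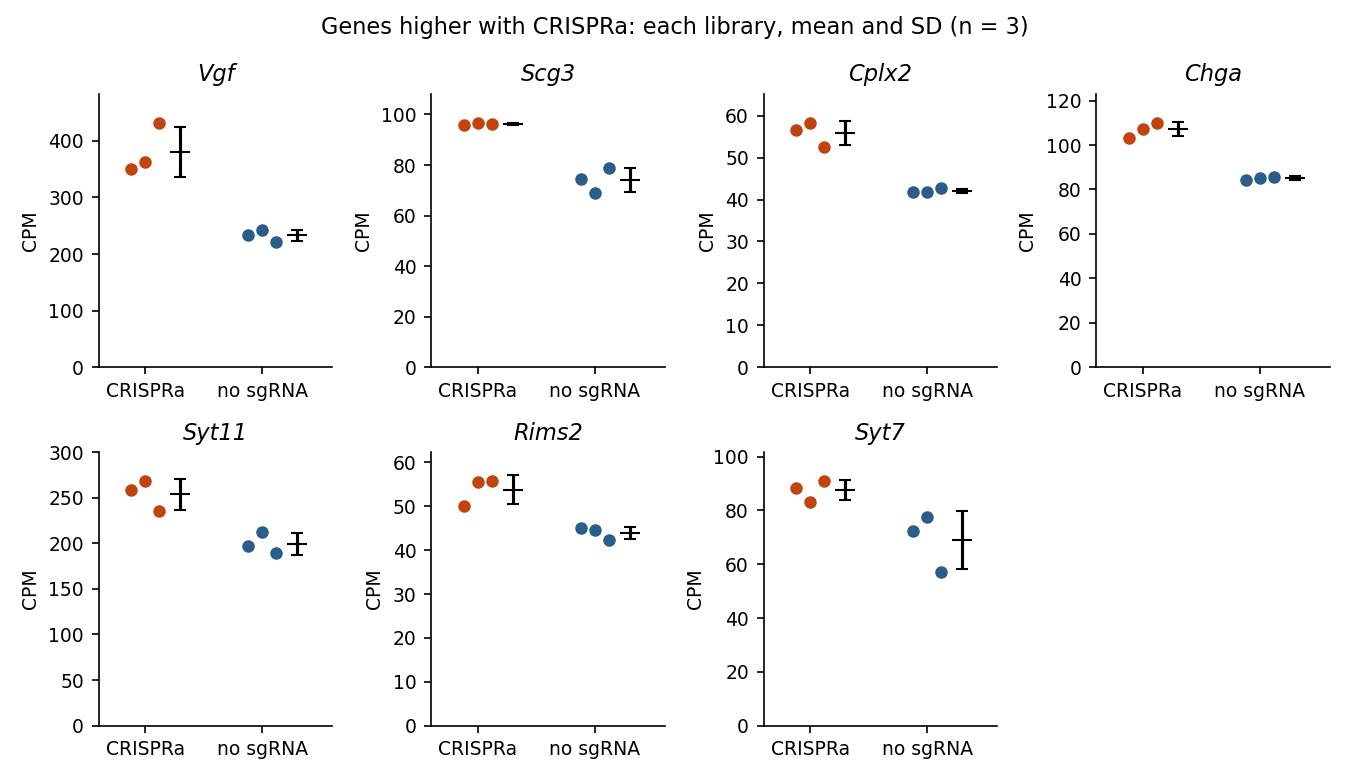
TMM-normalised CPM of the 7 genes called higher, 1 panel per gene ordered by adjusted p, with a point per library and a bar for the mean and SD (n = 3). In every panel the 3 CRISPRa points lie above the 3 no-sgRNA points, with the widest gap for Vgf (350 to 432 against 222 to 242 CPM).

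Among synaptotagmins, 2 of 6 were higher and 0 lower, a small set beside the 10.1% higher and 9.95% lower of all genes of that level. Syt11 (chromosome 3, 88744700 to 88775164, minus strand), a form that does not bind calcium, was at 259, 268 and 235 CPM against 197, 212 and 189 CPM. The groups were separate, and the log2 fold change was 0.35 with SE 0.07 (edgeR adjusted p = 0.00296). Of the 50-base words in its transcripts, 5.86% also occur in other genes, so part of its count is uncertain.

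Syt7 (chromosome 19, 10389090 to 10453180, plus strand), a slow high-affinity calcium sensor found on granules, was at 88.4, 83.3 and 90.8 CPM against 72.3, 77.6 and 57.2 CPM. No-sgRNA replicate 4 was the lowest, and the groups did not overlap (log2 fold change 0.34, SE 0.10, edgeR adjusted p = 0.0215). The call rests on single libraries: the adjusted p was 0.0501 without CRISPRa replicate 2, 0.0526 without CRISPRa replicate 5 and 0.0589 without no-sgRNA replicate 4. Exons of a gene on the opposite strand cover 5.13% of Syt7, and the use of strand in counting is not stated.

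Syt1, the fast sensor of synaptic release, did not pass, at 184, 190 and 145 CPM against 173, 173 and 173 CPM (log2 fold change 0.00, SE 0.09, edgeR adjusted p = 0.996). CRISPRa replicate 5 was again the lowest library. Syt11 was 2.26, 2.25 and 2.59 times as abundant as Syt1 by TPM with CRISPRa and 1.83, 1.96 and 1.75 times without the guide, with no overlap. Among other pairs compared in this way, the ratios of Syt7 to Syt1, Syn2 to Syn1 and Scg3 to Chga overlapped between the groups. Those of Cplx2 to Cplx1, Vamp1 to Vamp2 and Vgf to Chgb did not. The gap for Vamp1 to Vamp2 was narrow, with 0.36 in CRISPRa replicate 5 against 0.358 in no-sgRNA replicate 3. No ratio was tested, and how often ratios of other gene pairs overlap was not examined.

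Syt4, another form without normal calcium binding, was at 69.3, 72.8 and 90.2 CPM against 65.4, 61.7 and 64.9 CPM. CRISPRa replicate 5 was well above the rest, and the log2 fold change of 0.27 (SE 0.09) had an edgeR adjusted p of 0.0501. A gene on the opposite strand covers 14.5% of Syt4 exons. Syt5, a granule-associated calcium sensor, was at 14.3, 16.3 and 13.9 CPM against 11.5, 11.9 and 13.2 CPM, without overlap (log2 fold change 0.28, edgeR adjusted p = 0.122). Syt2 had 32, 42 and 32 counts against 22, 11 and 16, and its log2 fold change of 1.00 had an SE of 0.46 (edgeR adjusted p = 0.149).

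At the release site, 2 of 8 genes were higher and 0 lower, again a small set beside 10.1% and 9.95% of all genes of that level. Cplx2 (chromosome 13, 54371349 to 54383917, plus strand), one of the complexins that clamp and promote fusion by binding the SNARE complex, was at 56.5, 58.3 and 52.6 CPM against 41.8, 41.9 and 42.7 CPM. The 2 groups were well apart, and the log2 fold change was 0.41 with SE 0.08 (edgeR adjusted p = 0.00181). Its paralogue Cplx1 was at 44.9, 45.7 and 42.8 CPM against 36.7, 40.5 and 36.6 CPM, also without overlap, but with an edgeR adjusted p of 0.0606 (log2 fold change 0.23, SE 0.08). Cplx1 was the larger part of complexin TPM, at 64.2% ± 0.433 with CRISPRa and 66.9% ± 1.39 without the guide (SD, n = 3). That order rests on the length scaling, over 2189 exon bases for Cplx1 and 4928 for Cplx2. By counts Cplx2 was above Cplx1 in every library (1246 to 1948 against 1121 to 1549).

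Rims2 (chromosome 15, 39198261 to 39684372, plus strand) was at 50.1, 55.6 and 55.7 CPM against 45.0, 44.5 and 42.4 CPM, with no overlap (log2 fold change 0.29, SE 0.08, edgeR adjusted p = 0.0173). Its call did not hold when each library's trend with gene length was removed (adjusted p = 0.0514). It also did not hold without CRISPRa replicate 3 (adjusted p = 0.0749), no-sgRNA replicate 3 (0.0532) or no-sgRNA replicate 4 (0.0501).

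Rab3a, the vesicle GTPase that binds RIM, was the 1 gene of the group below its controls in every library, at 18.4, 18.7 and 17.0 CPM against 18.8, 20.7 and 25.2 CPM. The first control value is barely above the highest CRISPRa value, and the log2 fold change of -0.26 (SE 0.12) did not pass (edgeR adjusted p = 0.147). Bsn had a log2 fold change of 0.36 with an SE of 0.19, and its groups overlapped (edgeR adjusted p = 0.206). Unc13a, Erc1 and Erc2 lay between -0.03 and 0.09.

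None of the 4 SNARE genes and none of the 3 SNARE-recycling genes passed in edgeR. At an unadjusted p under 0.05 there was 1 in each set, Snap25 and Napb, and both passed in DESeq2. Snap25, the plasma membrane SNARE, was at 48.5, 50.2 and 46.1 CPM against 38.2, 42.1 and 42.6 CPM, without overlap (log2 fold change 0.24, SE 0.08, edgeR adjusted p = 0.0513). Its partner Stx1a, syntaxin 1A, was at 12.7 ± 1.59 against 11.6 ± 0.607 CPM (SD, n = 3; edgeR adjusted p = 0.515). Vamp1 and Vamp2 had log2 fold changes of 0.04 and -0.11, with overlapping groups.

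Napb (beta-SNAP) was at 33.3, 29.0 and 42.8 CPM against 29.7, 25.9 and 25.9 CPM. CRISPRa replicate 5 stood far above the other libraries and CRISPRa replicate 3 lay among the controls, so the groups overlapped (log2 fold change 0.37, SE 0.12, edgeR adjusted p = 0.0516). Napa and Nsf, the ATPase of SNARE disassembly, had log2 fold changes of 0.04 and 0.13.

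No synapsin and no vesicle membrane gene passed, in edgeR or at an unadjusted p under 0.05, and DESeq2 added none of these. Syn2 was at 278, 277 and 218 CPM against 254, 269 and 288 CPM, with CRISPRa replicate 5 the lowest. Syn1 differed by 0.27 on the log2 scale with SE 0.13 (edgeR adjusted p = 0.166) and Syn3 by -0.06. Syp (synaptophysin, the abundant vesicle membrane protein) had 0.20, Sv2a 0.23 and Sv2c 0.09, with edgeR adjusted p-values of 0.289, 0.199 and 0.470. Genes on the opposite strand cover 16.8% of Syp exons and 14.1% of Syn3 exons. Slc17a7 had 46, 48 and 47 counts with CRISPRa and 18, 30 and 16 without the guide. The groups were separate at this low level, and the difference on the log2 scale was 1.01 with SE 0.41 (edgeR adjusted p = 0.101).

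Summed over the 42 genes, counts were 0.356%, 0.361% and 0.339% of each CRISPRa library and 0.308%, 0.313% and 0.300% of each no-sgRNA library. Without Vgf the shares were 0.321%, 0.324% and 0.295% against 0.285%, 0.289% and 0.278%. In both sums the CRISPRa libraries lay above the controls.

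The authors' deposited table of their own comparison covers 8 samples, 6 of which may be those used here, so its values are not independent. Of the 34 genes with an adjusted p in the authors' deposited table, 16 were higher and 0 lower at 0.05, against 14.8% and 13.8% of all genes listed with one. All 7 genes named above are among the 16. The authors' deposited table gives a log2 fold change of 0.74 for Vgf, 0.44 for Scg3, 0.45 for Cplx2 and 0.38 for Syt11. It gives 0.35 for Chga, 0.28 for Rims2 and 0.25 for Syt7, with Rims2 and Syt7 below their 0.29 and 0.34 in the 6 libraries. In the authors' deposited table Scg2 (adjusted p 0.000134), Snap25 (5.15e-05), Cplx1 (3.29e-05), Napb (0.011) and Syt4 (0.0378) also passed. The other 4 of the 9 that passed only in the authors' deposited table were Chgb (adjusted p 0.0165), Bsn (0.00938), Syt2 (0.0245) and Sv2c (0.0429), which did not pass in the 6 libraries.

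Other genes of the pathway, 126 in 3 lists, were read in the same fit, and 96 had a fold change. Of these, 12 were higher and 5 lower (12.5% higher against 10.1% of all genes of that level), with a median log2 fold change of 0.067. Among 34 genes of vesicle membrane and recycling, 9 were higher and 2 lower, or 26.5% higher beside 10.1%. Slc18a2 rose from 70.8 ± 0.58 to 98.0 ± 3.02 CPM (SD, n = 3), or by 0.47 on the log2 scale with SE 0.07 (edgeR adjusted p = 0.000191). Ston2, an adaptor that retrieves synaptotagmin, rose (0.36, adjusted p = 0.0111), and Sh3gl1, an endophilin, fell (log2 fold change -0.38, adjusted p = 0.00169). Clta, a clathrin light chain chosen after its value was seen, was the other gene that fell (-0.29, adjusted p = 0.0166). The 9 higher became 5 without CRISPRa replicate 2, CRISPRa replicate 5 or no-sgRNA replicate 2, and 4 without CRISPRa replicate 3. The 2 lower became 1 without CRISPRa replicate 5 or no-sgRNA replicate 4. Over all genes, leaving out 1 library took the 1431 higher to 1040 to 1266 and the 1398 lower to 939 to 1252.

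Among 22 genes of granule biogenesis and peptide processing, 3 were higher and 1 lower. The 18.2% called is near the 20.0% of all genes of that level, and the 13.6% higher stands beside 10.1%. Ptprn (IA-2, a granule membrane protein) rose from 50.8 ± 1.23 to 70.2 ± 3.45 CPM (SD, n = 3; log2 fold change 0.47, edgeR adjusted p = 0.000481). Ccdc186, which acts in granule maturation, rose by 0.45 on the log2 scale (edgeR adjusted p = 0.000634) and Sez6l2 by 0.39 (0.00192). The 1 that fell was Cpe, carboxypeptidase E, which trims peptides after prohormone cleavage (-0.31, edgeR adjusted p = 0.012). It was named after its value was seen.

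Of 40 other exocytosis genes, 0 were higher and 2 lower in edgeR, with a median log2 fold change of 0.018. That is 5.0% called, beside 20.0% of all genes of that level (10.1% higher and 9.95% lower). At an unadjusted p under 0.05 there were 3 higher and 5 lower, and DESeq2 and limma-voom each called 0 higher and 3 lower. Without CRISPRa replicate 5 there were 1 higher and 1 lower, and without no-sgRNA replicate 3 there was 1 lower. Rims4, a short RIM, fell by 0.64 on the log2 scale (edgeR adjusted p = 0.00114).

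Of 8 expressed regulators, 1 was higher and 3 lower. The set is small, and of all genes of that level 10.1% were higher and 9.95% lower. Insm1, a zinc finger factor of neuroendocrine differentiation, fell from 289 ± 12.6 to 189 ± 7.44 CPM (SD, n = 3), and its log2 fold change was -0.61 with SE 0.06 (edgeR adjusted p = 9.41e-06). Rcor2 and Rcor1, corepressors of the REST complex, fell (log2 fold changes -0.44 and -0.20, adjusted p = 0.000404 and 0.0372). Rest itself was at 81.8 ± 7.05 against 92.8 ± 1.76 CPM and did not pass (-0.18, edgeR adjusted p = 0.103), nor did Pax6 (-0.10, adjusted p = 0.601). Crem is described with the promoters above, and Neurod1 had 0 counts in every library.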

How the data were processed

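The authors' deposited count table gives raw read counts, as whole numbers, for 6 of the 8 labelled samples, and the other 2 are not analysed here. The submitters' processing notes name STAR 2.5.1b, featureCounts and mm10. Annotation, strand use and multi-mapping are not given in the sources used here. The second deposited table holds the authors' own signal (mean normalised count), log2 fold change with SE, Wald score and p-values over 8 samples. Its direction is not stated. All 2589 genes called in both had the sign of the counts, so it was read as CRISPRa against no sgRNA.

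Counts were tested with edgeR 4.0.16 (quasi-likelihood, TMM, filterByExpr, R 4.3.3), Benjamini-Hochberg adjusted over all 15117 genes tested, with no covariate. The SE is the log2 fold change divided by the square root of F. Fold changes are given for members with a mean of at least 0.5 CPM. TPM used the deposited exon length, summed over the exons of each gene. Alternatives were other scalings and filters, DESeq2 1.42.0, limma-voom (limma 3.58.1), a gene-length correction (lowess, span 0.2), a replicate block and leaving out each library. The code was tested on simulated data. The members and lists were chosen with earlier results of these data known. The rule named all members and, of each other pathway list, up to 3 called genes with the largest change and a mean of at least 1 CPM, besides all tested regulators. Some genes that fall under this rule are not reported here.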

Additional observations from a re-analysis of the deposited data

How the results depend on the processing

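None of the 646 values of single genes over the alternatives reversed a call: 583 kept their side of the threshold, 53 passed newly and 10 no longer passed, the last all of Syt7 or Rims2. Vgf, Scg3, Chga, Cplx2 and Syt11 passed in all 11 other fits on 4 or 6 libraries and in all 6 that left out 1 library. The median log2 fold change of the 34 genes ran from 0.164, on the 4 libraries numbered 2 and 3, to 0.25.

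The number of genes higher was 7. It was 12 with DESeq2, library-size scaling, the mean CPM filter or an adjusted p under 0.1, and 11 with RLE factors. Leaving out 1 library gave 6 to 7. None was lower under any of these.

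Of the other exocytosis genes, 1 was higher at an adjusted p under 0.1 and on the 4 libraries with no block. Of them, 1 was lower with RLE, upper-quartile or library-size scaling and at an adjusted p under 0.01, and 4 at 0.1; leaving out 1 library gave 0 to 1 higher and 1 to 2 lower. Of the vesicle membrane and recycling genes, 3 were higher and 1 lower at 0.01, and leaving out 1 library gave 4 to 7 higher and 1 to 2 lower. Of the granule biogenesis genes, 0 were lower at 0.01 and 2 at 0.1. At 0.01 and 0.1 the threshold itself is the cause, and elsewhere the cause was not tested.

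Equal replicate numbers were not shown to pair the samples: the difference between replicates 2 and 3 in the 2 groups had a correlation of 0.00448 across 15117 genes, which are not independent. With the replicate block on those 4 libraries, 13 members were higher (12 with the gene-length trend also removed), 2 and 2 of the other exocytosis genes and 5 and 5 of the granule biogenesis genes. The same 4 libraries without the block gave 10 members. Syn1 and Syt5 passed in these fits with the block and in no other.

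Depth limits Syt2 and Slc17a7, with 11 to 48 counts a library, and the 8 genes under 0.5 CPM.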

Other observations

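The libraries of a group did not rank alike over the 34 genes. CRISPRa replicate 5 was the lowest of its group for 19 genes and the highest for 10, and CRISPRa replicate 3 was the highest for 17. No-sgRNA replicate 4 was the lowest of its group for 17 genes and the highest for 12. The coefficient of variation within a group had a median of 8.73% with CRISPRa and 6.42% without the guide, and ranged from 0.463% to 21.4% and from 0.252% to 38.5%. Vgf, Syt4 and Napb were highest and Syn2, Syt1 and Scg5 were lowest in CRISPRa replicate 5, and these 6 genes were picked after their values were seen.

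Cltc, the clathrin heavy chain, was higher at 455 ± 26.4 against 359 ± 11.7 CPM (SD, n = 3; log2 fold change 0.34, edgeR adjusted p = 0.00172), while the light chain gene Clta was lower (-0.29, edgeR adjusted p = 0.0166). In the granule list, Ptprn was higher and Cpe lower. These pairs were named after their values were seen, and the difference between the genes of a pair was not tested.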
